A study of Mus musculus with 3 samples.

Results

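Thrombospondins are secreted, multimeric glycoproteins that bind collagens, proteases, growth factors and cell surface receptors, and CD47 is a membrane protein of the immunoglobulin superfamily that binds the C-terminal region of thrombospondins. The genes described here are the 5 thrombospondin genes of the mouse, Thbs1, Thbs2, Thbs3, Thbs4 and Comp (cartilage oligomeric matrix protein), together with Cd47. They were chosen by name from the 21782 genes of the RNA-seq count table, with their levels already known, so that levels are given as a description and without a test. All 6 genes were found in the table.

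The samples were WT MEFs, fibroblasts from embryos at E12.5 kept as asynchronous cultures in serum, and polyA RNA of 3 clones was sequenced with 1 library per clone. The genotype is WT in all of them, no treatment or second condition was sequenced, and an error given as SD is the spread between the 3 clones. The labels do not say whether the clones came from separate embryos. Total counts were 25261357, 22594316 and 24791198 in clones 1, 2 and 3. CPM are counts of a gene per 1000000 counts of its library after TMM scaling, and for levels of different genes CPM were divided by the kb of all annotated exons of the gene. In all clones, 12218 genes reached 10 counts. The 95% counting interval of the ratio of clone 1 to clone 2 left out 1 for 56.7% of these genes. The share was 50.5% for clones 1 and 3 and 39.7% for clones 2 and 3. The intervals cover counting error only, and there was no repeat library of a clone to compare with.

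The clones differed in the markers of other cell types and of growth. All 11 macrophage markers that could be matched (among them Csf1r, C1qa, Lyz2 and Mpeg1) were expressed and highest in clone 2, and their sum was 404, 1909 and 336 CPM in clones 1, 2 and 3. Adgre1 could not be matched. The 6 proliferation markers were all lowest in clone 1 and highest in clone 2, with sums of 368, 723 and 609 CPM, while the 3 arrest markers (Cdkn1a, Cdkn2a and Cdkn2b) summed to 587, 411 and 464 CPM and were all highest in clone 1. All 9 fibroblast markers were expressed, with sums of 56794, 47171 and 45748 CPM, most of it Col1a1 and Col1a2. Of the 9, 6 were highest in clone 1 and 3 in clone 2. The latter were Vim (3789, 4191 and 4026 CPM), Thy1 (893, 1387 and 874 CPM) and Pdgfra (11.8, 27.3 and 16.8 CPM). Dcn and Lum, both often used for adult fibroblasts, were low at 7.73 and 2.03 CPM. The 5 smooth muscle markers, which cultured fibroblasts also express, summed to 10234, 10227 and 10477 CPM, most of it Acta2 and Tagln. Within this list, Myh11 (199, 79.9 and 170 CPM) and Des (71.6, 31.1 and 96.5 CPM) were lowest in clone 2. Acta2 (6639, 6844 and 7082 CPM) and Cnn1 (463, 488 and 472 CPM) were lowest in clone 1, and Tagln (2862, 2784 and 2657 CPM) in clone 3. Of 6 epithelial markers 1 (Krt18) was expressed. Of all genes in the table, 52.2% were expressed.

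In textbook terms, TSP1 and TSP2 form trimers and carry type 1 repeats, which bind CD36 and, in TSP1, activate latent TGF-beta. TSP3, TSP4 and COMP form pentamers and have no type 1 repeats. All members share the calcium-binding repeats and a globular C-terminal region. CD47 also binds SIRPα on phagocytes as an inhibitory signal, and fibroblasts, platelets and endothelium are well-known sources of thrombospondins.

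The coding sequences of the GENCODE annotation follow this division. TSP1 is encoded with 1171 residues and TSP2 with 1172, and 62.8% of their 1159 aligned residues were identical. TSP3 (956 residues), TSP4 (963 residues) and COMP (755 residues) were closest to each other, at 62.1% to 69.8% identity. Between these subgroups, identity was 46.9% to 56.2%. In the last 500 residues, which hold the C-terminal region, it was 80.0% for TSP1 and TSP2, 73.5% to 80.2% within the other subgroup and 60.7% to 62.0% between them. The tryptophan motif WSxW, where x is any residue, is typical of type 1 repeats and was found 5 times each in TSP1 and TSP2 and 0 times in the other members. The letters VVM, part of a C-terminal stretch known from peptide studies of CD47 binding, occurred 2 times in TSP1 and 1 time in each of the other 4 proteins. The integrin-binding letters RGD occurred 1 time in TSP1, TSP2 and COMP, 2 times in TSP4 and 0 times in TSP3.

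On the mouse genome (GRCm38, the same assembly as mm10), Thbs1 lies on chromosome 2 from 118111876 to 118127133 on the plus strand, Thbs2 on the minus strand of chromosome 17 (14665500 to 14694235), and Thbs3 on chromosome 3 from 89215180 to 89226837 on the plus strand. Thbs4 lies on the minus strand of chromosome 13 (92751590 to 92794818), Comp on chromosome 8 from 70373558 to 70382066 on the plus strand, and Cd47 on chromosome 16 from 49800533 to 49915010 on the plus strand. Annotated exons cover 6073 bp of Thbs1, 7003 bp of Thbs2, 4823 bp of Thbs3, 3289 bp of Thbs4, 2967 bp of Comp and 6276 bp of Cd47. Shared stretches were searched in 1 transcript per member, that of longest coding sequence. It has 1032 nt for Cd47 and 3190 nt for Thbs3, so that most exon bases of Cd47 and part of those of Thbs3 were left out. Exon bases outside these transcripts were not compared with genes other than the members. No 86-nt stretch of these transcripts matched a transcript of another member with up to 2 mismatches, so reads of this length from them can separate the members. Within the searched transcripts, stretches shared with another gene were 0.5% of those of Thbs1, with the gene Gm29233 on the opposite strand. For Thbs3 they were 3.25%, with Mtx1 on the opposite strand, and the other members had none. In position, exons of these partners covered 3.42% of the exon bases of Thbs1 and 6.59% of those of Thbs3. The strand setting of the counting is not given in the sources used here, so reads from the overlapping parts could not be assigned.

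The sequences before the starts of 4 members whose RNA ranged from near absent to abundant are shown from the RefSeq table of GRCm38.p6, as the 250 bases before the first start listed, on the strand of the gene. Capitals mark the letters TATAAA (those of the TATA box), CCAAT and GGGCGG (the GC box) on either strand. Whether a match acts as such an element was not tested. The regions are chr17:14694263-14694512 (minus strand) for Thbs2, chr3:89214930-89215179 (plus strand) for Thbs3, chr13:92794819-92795068 (minus strand) for Thbs4 and chr16:49855404-49855653 (plus strand) for Cd47, whose first RefSeq start lies inside the span given above.
Thbs2: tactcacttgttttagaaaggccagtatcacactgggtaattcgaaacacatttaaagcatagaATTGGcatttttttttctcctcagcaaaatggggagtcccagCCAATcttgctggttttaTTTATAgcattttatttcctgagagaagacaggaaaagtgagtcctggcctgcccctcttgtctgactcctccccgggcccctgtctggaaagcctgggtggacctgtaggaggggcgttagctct
Thbs3: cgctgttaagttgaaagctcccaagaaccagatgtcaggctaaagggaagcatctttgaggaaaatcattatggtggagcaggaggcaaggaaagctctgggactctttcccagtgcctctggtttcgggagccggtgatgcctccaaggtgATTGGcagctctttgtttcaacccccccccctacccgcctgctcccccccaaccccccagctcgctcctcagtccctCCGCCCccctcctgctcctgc
Thbs4: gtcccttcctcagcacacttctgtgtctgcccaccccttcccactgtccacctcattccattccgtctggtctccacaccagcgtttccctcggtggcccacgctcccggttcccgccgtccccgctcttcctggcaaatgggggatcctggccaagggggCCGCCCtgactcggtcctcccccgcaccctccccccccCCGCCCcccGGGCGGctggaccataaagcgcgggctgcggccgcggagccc
Cd47: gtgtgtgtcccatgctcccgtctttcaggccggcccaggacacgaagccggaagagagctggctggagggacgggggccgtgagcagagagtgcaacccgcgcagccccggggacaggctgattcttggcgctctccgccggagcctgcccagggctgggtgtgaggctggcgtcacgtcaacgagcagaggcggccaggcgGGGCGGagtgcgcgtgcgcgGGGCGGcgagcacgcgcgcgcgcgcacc
The region of Thbs2 held 1 TATAAA match, which lies on the opposite strand and begins 126 bases before the start. It also held 2 CCAAT matches and 0 GC boxes, with 3 CpG dinucleotides. That of Thbs3 held 1 CCAAT match and 1 GC box with 6 CpG. The region of Thbs4 had 3 GC boxes and 19 CpG, and that of Cd47 had 2 GC boxes and 30 CpG. Among 32851 such regions in the table, 12.4% held TATAAA, 33.8% CCAAT and 32.7% GGGCGG, and the median number of CpG was 6. Of the 4 regions shown, those with the most CpG were those of Thbs4, the member with the lowest RNA level, and of Cd47.

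Of the 6 genes, 5 were expressed, as defined by at least 1 CPM in every clone, and 52.2% of all genes in the table passed this threshold. Thbs4 was the exception. The levels of the expressed members spanned more than 3 powers of 10 per kb of exon, and Thbs1 alone made up nearly all of the thrombospondin RNA. In the plot of CPM by clone, the points of Thbs1 lie nearly level, while those of Comp and Thbs4 are spread.

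**Figure D1:**
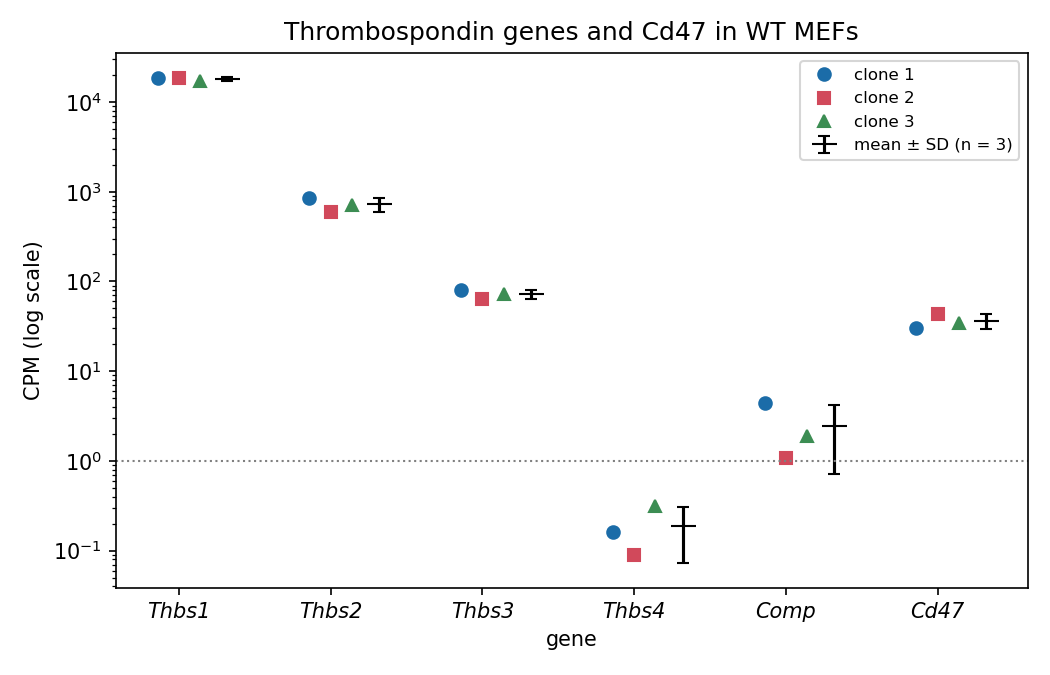
CPM (log axis) of the 5 thrombospondin genes and Cd47 in WT MEFs, with 1 point per clone and, beside the points, the mean ± SD of the 3 clones; the dotted line is 1 CPM. Thbs1 lies near 18018 CPM in every clone, and Thbs4 lies below 1 CPM in every clone.

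Thbs1 encodes TSP1, which restrains angiogenesis, activates latent TGF-beta and signals through CD36 and CD47. Clones 1, 2 and 3 had 456530, 419272 and 431560 counts, which is 18375, 18594 and 17086 CPM. The mean was 18018 ± 815 CPM (SD, n = 3), and 1.81%, 1.86% and 1.74% of all counts of clones 1, 2 and 3 fell on this gene. Only 2 of the genes with an exon length ranked above it per kb of exon, where it reached 2967 ± 134 CPM per kb. Its coefficient of variation between clones was 4.52%, against a median of 11.3% over the 12218 genes, and 14.2% of these varied less. Clone 2 exceeded clone 3 by a ratio of 1.09 (95% counting interval 1.08 to 1.09). Counting error is minute at this depth, and a ratio of this size was below the median ratio of 1.24 between the highest and lowest clone of the same genes.

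Thbs2 encodes TSP2, an inhibitor of angiogenesis that also takes part in collagen fibril assembly and in the clearance of MMP2 through LRP1. Clones 1, 2 and 3 had 21037, 13550 and 18185 counts, or 847, 601 and 720 CPM, with a mean of 723 ± 123 CPM (SD, n = 3). Clone 1 was highest and clone 2 lowest. The ratio of clone 1 to clone 2 was 1.41 (counting interval 1.38 to 1.44). Per kb of exon, Thbs2 reached 103 ± 17.6 CPM, and Thbs1 stood 29.4 ± 5.60 times higher (SD, n = 3), from 25.0 times in clone 1 to 35.7 times in clone 2.

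Thbs3 encodes TSP3, a pentameric member known from the growing skeleton. It had 2005, 1436 and 1832 counts, or 80.7, 63.7 and 72.5 CPM in clones 1, 2 and 3 (72.3 ± 8.51 CPM; SD, n = 3). As for Thbs2, clone 1 was highest and clone 2 lowest, with a ratio of 1.27 between them (counting interval 1.18 to 1.36). Per kb, Thbs3 was at 15.0 ± 1.76 CPM, and Thbs2 lay above it by 6.85 ± 0.36 times (SD, n = 3). This was the most even ratio between neighbouring members, at 7.23, 6.5 and 6.84 in clones 1, 2 and 3.

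Comp encodes COMP, which binds collagens and matrilins and is abundant in cartilage and tendon. It was at the lower end of the expressed genes, with 109, 24 and 48 counts, or 4.39, 1.06 and 1.90 CPM in clones 1, 2 and 3. The mean was 2.45 ± 1.73 CPM (SD, n = 3), and without clone 1 it was 1.49 CPM. Clone 1 exceeded clone 2 by 4.12 times (counting interval 2.63 to 6.71) and clone 3 by 2.31 times (1.63 to 3.31), and without clone 1 the remaining ratio was 1.79. Genes with this few counts also vary through counting, and 98.3% of the 12218 genes had a smaller coefficient of variation. Per kb, Thbs3 was above Comp in every clone, by 11.3 to 36.8 times.

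Comp was read beside the markers of the tissues it is known from. Of 9 cartilage markers, 5 were at 1 CPM or more in every clone (55.6%, against 52.2% of all genes). The sum of the 9 was 820, 560 and 783 CPM in clones 1, 2 and 3, most of it Col2a1. Matn1, the gene of a cartilage matrilin, had 6, 2 and 0 counts. All 4 tendon markers (Scx, Tnmd, Mkx and Fmod) were expressed, with a sum of 144, 117 and 144 CPM. Both sums were lowest in clone 2, as Comp was, but of the single cartilage markers only Col2a1 was lowest there, and Col9a1 had 4.47, 2.39 and 0.317 CPM in clones 1, 2 and 3. Of the tendon markers, 3 of 4 were lowest in clone 2. Their part in the Comp values was not tested.

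Thbs4 encodes TSP4, a pentameric member known from muscle, tendon and nervous tissue. It had 4, 2 and 8 counts in clones 1, 2 and 3, or 0.161, 0.089 and 0.317 CPM, with a mean of 0.189 CPM, or 0.124 CPM without clone 3. A count of 0 would still allow 3 counts, or 0.121, 0.133 and 0.119 CPM in the same clones, so that clone 2 was not above that limit. The difference between clones was not detectable at this depth, as the ratio of clone 3 to clone 2 had a counting interval from 0.713 to 34.5.

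Within the family, 95.2%, 96.5% and 95.6% of the thrombospondin counts of clones 1, 2 and 3 fell on Thbs1 (95% Clopper-Pearson intervals 95.1 to 95.2, 96.5 to 96.6 and 95.5 to 95.6). Per kb of exon, the share of Thbs1 was 96.1% ± 0.646, that of Thbs2 3.35% ± 0.570, that of Thbs3 0.486% ± 0.060 and that of Comp 0.027% ± 0.018 (SD, n = 3). The order Thbs1, Thbs2, Thbs3, Comp and Thbs4 was the same in every clone. Because reads without molecular identifiers are not independent molecules, these intervals and limits reflect counting error alone.

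Cd47 was measured at 758, 985 and 864 counts, or 30.5, 43.7 and 34.2 CPM in clones 1, 2 and 3, with a mean of 36.1 ± 6.79 CPM (SD, n = 3). Clone 2 was highest and clone 1 lowest, opposite to Thbs2 and Thbs3. The ratio of clone 2 to clone 1 was 1.43 (counting interval 1.30 to 1.58), and that of clone 2 to clone 3 was 1.28 (1.16 to 1.40). Per kb, Cd47 was at 5.76 ± 1.08 CPM, and Thbs1 was 526 ± 91.7 times above it (SD, n = 3). Thbs3 was above Cd47 by 1.90 to 3.44 times per kb of all exons, but not when the transcript of longest coding sequence gave the length, where Cd47 reached 35.0 CPM and Thbs3 22.7 CPM. The Cd47 transcript of that choice has 1032 nt, of which 1026 nt are coding, against 6276 bp of exons in all, and every ratio or placing of Cd47 per kb depends on this length.

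Of the 5 members that reached 10 counts in all clones, 1 showed a ratio of highest to lowest clone of 1.5 or more, namely Comp, against 22.3% of the 12218 genes. Comp was highest in clone 1, and 8.26% of the 12218 genes had such a ratio with clone 1 highest. The order of clone 1 over clone 3 over clone 2 was found for Thbs2, Thbs3 and Comp, and for 23.4% of those genes, and the reverse order for Cd47 and 23.5%. With 1 library per clone, a clone cannot be told apart from its culture or its library. In these bulk RNA samples, fewer cells of a type and less RNA per cell cannot be told apart either.

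The part of the macrophage, proliferation and arrest markers, whose sums are given above, in the differences of Thbs2, Thbs3, Comp and Cd47 was not tested.

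**Figure D2:**
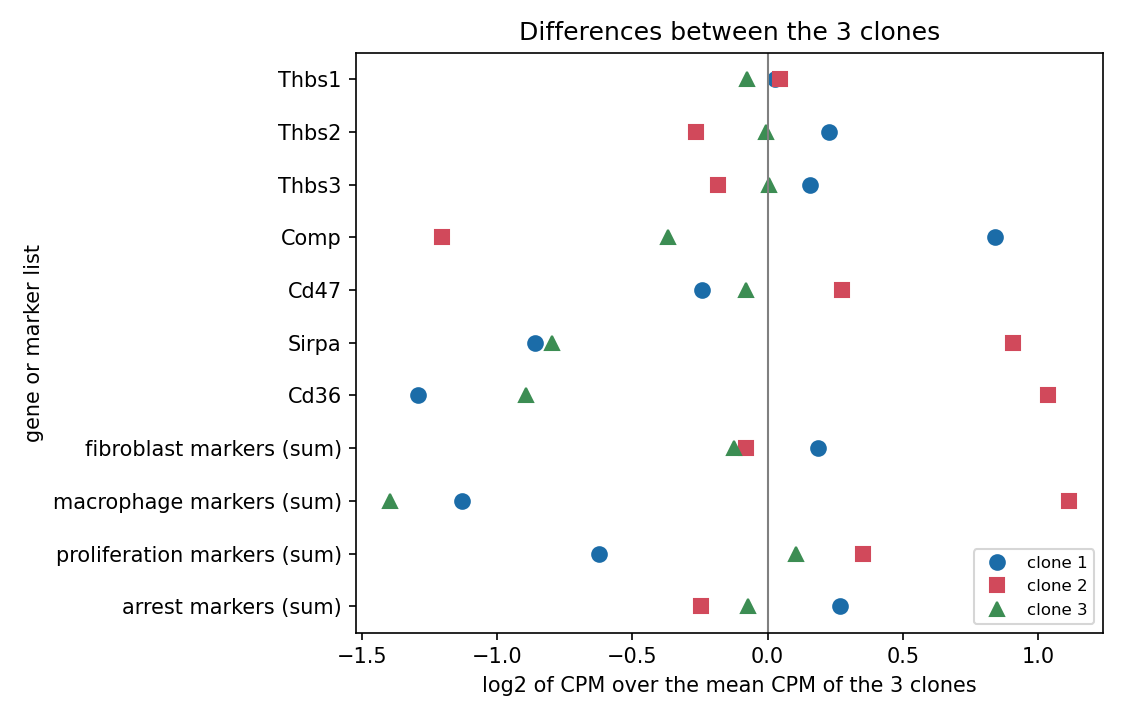
Level in each clone as log2 of its CPM over the mean CPM of the 3 clones (x axis), for Thbs1, Thbs2, Thbs3, Comp and Cd47, for Sirpa and Cd36, and for the summed CPM of 4 marker lists. Thbs1 is nearly even, Thbs2, Thbs3 and Comp are highest in clone 1, and Cd47, Sirpa, Cd36 and the macrophage markers are highest in clone 2.

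Besides Cd47, the list of thrombospondin receptors held 11 genes, and all 12 of the list were expressed, against 52.2% of all genes. Their median was 112 CPM against 25.7 CPM over the 11367 expressed genes, both without regard to length. The highest in CPM were Itgb1, the integrin β1 subunit, at 1108 ± 69.7 CPM per kb, Calr at 871 ± 38.4, Lrp1 at 124 ± 27.3 and Itgav, the integrin αv subunit, at 55.9 ± 8.71 (SD, n = 3). Per kb, Sdc4, the syndecan-4 gene, was above Itgav at 75.5 ± 9.17. Calreticulin and LRP1 together form a receptor for the N-terminal region of TSP1, and LRP1 also takes up TSP2 with bound MMP2. Per kb, Thbs1 exceeded Itgb1 by 2.68 ± 0.179 times, Calr by 3.41 ± 0.169 times and Lrp1 by 24.6 ± 4.45 times (SD, n = 3). Itgb3, the partner of αv in a known TSP1 receptor, was at 16.3 ± 2.69 CPM per kb, and Cacna2d1, the calcium channel subunit that binds thrombospondins in neurons, at 3.46 ± 0.557.

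**Figure D3:**
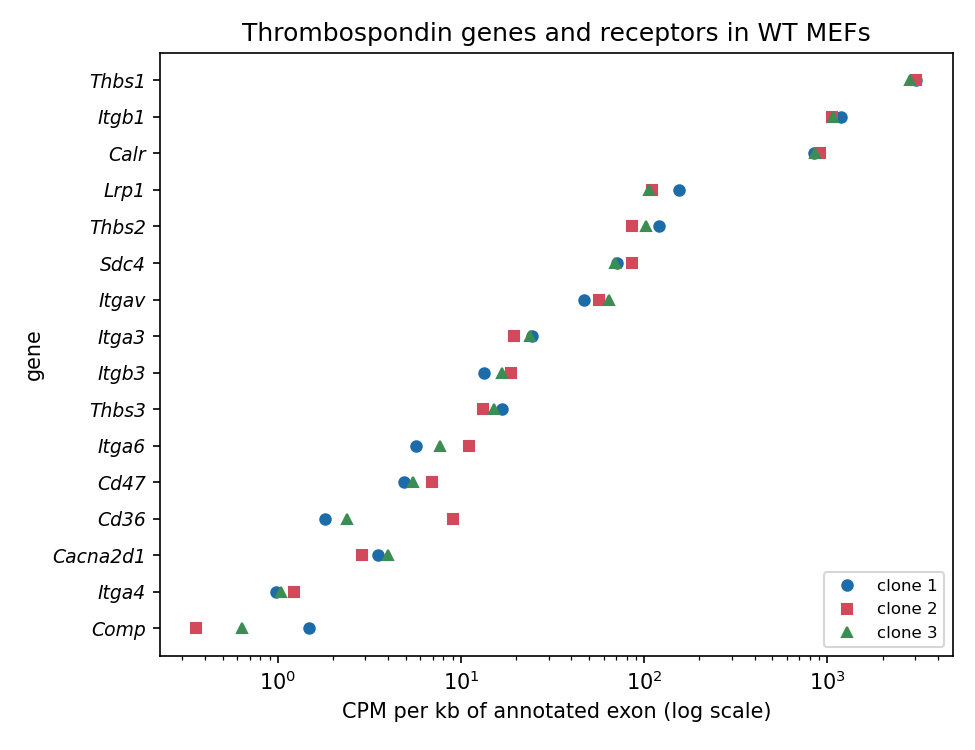
CPM per kb of annotated exon (log axis) of the thrombospondin and receptor genes that passed 1 CPM in all clones (Thbs4 did not), with 1 point per clone and genes ordered by mean. Thbs1 lies above every receptor gene, and Cd47, at 5.76 CPM per kb of all exons (35.0 with the shorter transcript length), lies near Itga6 and Cd36.

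Cd36, the scavenger receptor that binds the type 1 repeats, was the receptor with the widest range. It had 161, 735 and 216 counts in clones 1, 2 and 3, or 6.48, 32.6 and 8.55 CPM, and it was named here after its values were seen. Clone 2 exceeded clone 1 by 5.03 times (counting interval 4.24 to 6.0), while clone 3 exceeded clone 1 by 1.32 times (1.07 to 1.63). Per kb of all exons, it was at 4.42 ± 4.04 CPM (SD, n = 3). Of the 12 receptors, 2 (Cd36 and Itga6) had a ratio of 1.5 or more between clones, both with clone 2 highest, as 10.5% of the 12218 genes did.

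Sirpa, the gene of the phagocyte receptor for CD47, had 1122, 3462 and 1192 counts, or 45.2, 153.5 and 47.2 CPM in clones 1, 2 and 3. Clone 2 was far above the others, at 3.40 times clone 1 (counting interval 3.18 to 3.64), and clones 1 and 3 differed by a ratio of 0.957 with an interval that includes 1 (0.881 to 1.04). Sirpa and Cd36 are both known from macrophages, whose markers summed to 404 and 336 CPM in clones 1 and 3 and to 1909 CPM in clone 2, and the part of these cells in the values was not tested. Among the other partners of CD47, Ubqln1, whose product binds its cytoplasmic tail, was at 120 ± 14.0 CPM, and Qpctl, the enzyme that modifies its N-terminus for SIRPα binding, at 34.2 ± 0.893 CPM (SD, n = 3). Qpctl varied by 1.05-fold between clones. Of the 10 genes of this list, 7 were expressed (70.0%, against 52.2% of all genes). The median over all 10 was 12.1 CPM.

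The genes of nitric oxide and cGMP signalling, which TSP1 inhibits through CD47 in vascular cells, were each below the median of 25.7 CPM of the expressed genes. Gene length was not taken into account there. Prkg1, the cGMP-dependent kinase, was at 17.2 ± 3.59 CPM (SD, n = 3). Nos3, the endothelial nitric oxide synthase, had 2, 0 and 2 counts in clones 1, 2 and 3, no more than the limit of 3 counts. Gucy1b3 (Gucy1b1), the soluble guanylate cyclase β subunit, was at 10.8 ± 3.08 CPM, and Gucy1a3 (Gucy1a1), its α subunit, at 1.07 ± 0.161 CPM, below 1 CPM in clone 1. Of 6 endothelial markers, 1 (Kdr) was expressed in every clone (16.7%, against 52.2% of all genes), and Tie1 had 0 counts. Emcn, the endomucin gene, had 307, 4 and 242 counts in clones 1, 2 and 3, or 12.4, 0.177 and 9.58 CPM. It was thus nearly absent from clone 2 alone, and it was named after its values were seen. The list had no common direction, as 2 of the 6 markers were lowest in clone 2 and 2 were highest there. The latter were Pecam1 (6, 15 and 6 counts) and Cdh5 (4, 6 and 2 counts), and Kdr had 163, 214 and 314 counts. Of 8 markers of platelets and their precursors, which store TSP1, 4 were expressed, and Gp9 and Gp6 had 0 counts in every clone.

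All 8 genes of the list for latent TGF-beta, the growth factor that TSP1 activates, were expressed, against 52.2% of all genes. Their median was 463 CPM. Tgfb3 was highest of the ligands at 161 ± 8.32 CPM per kb, followed by Tgfb2 at 22.3 ± 1.21 and Tgfb1 at 15.7 ± 4.02 (SD, n = 3). Of the Ltbp genes, the family named for latent TGF-beta binding, the highest were Ltbp2 at 131 ± 41.0 CPM per kb, Ltbp1 at 80.2 ± 7.45 and Ltbp3 at 55.7 ± 16.9. They were listed by family name, and which of their proteins bind latent TGF-beta was not assessed. Ltbp1 and Tgfb3 had highest over lowest ratios of 1.19 and 1.10, against a median of 1.24 over the 12218 genes. Ltbp2 (1.85) and Ltbp3 (1.77) were highest in clone 1 and lowest in clone 2, the order of Thbs2 and of 23.4% of those genes. Tgfb1 (1.64) went another way, with 74.6, 101 and 61.7 CPM in clones 1, 2 and 3. Thbs1 lay above all of these genes per kb.

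Among the matrix and protease partners, 11 of 15 genes were expressed (73.3%, against 52.2% of all genes). Per kb, Col1a1 was at 4223 ± 576 CPM, Fn1 at 2335 ± 685 and Col1a2 at 1157 ± 169 (SD, n = 3), so that Thbs1 was 0.709 ± 0.080 times Col1a1. Relative to Fn1 it was 0.979 times in clone 1, 1.74 times in clone 2 and 1.31 times in clone 3, and the order of Thbs1 and Fn1 was thus not fixed. Hspg2, the perlecan gene, was at 249 ± 56.0 CPM per kb. Mmp2, the protease cleared with TSP2, had 34274, 15324 and 22535 counts and was highest in clone 1 and lowest in clone 2, as Thbs2 was. The ratio of these clones was 2.03 (counting interval 1.99 to 2.07), and 23.4% of the 12218 genes had the same order. Mmp2 was named after its values were seen. Of the matrilin genes, whose products COMP binds, Matn2 was at 37.8 ± 3.38 CPM, Matn3 at 1.71 ± 0.441 and Matn4 at 1.02 ± 0.754 (SD, n = 3). Matn1 had 6, 2 and 0 counts in clones 1, 2 and 3. Acan, also of this list, was at 43.5 ± 3.22 CPM. Plg, the plasminogen gene, had 0 counts in every clone.

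Type 1 repeats also occur in other secreted and membrane proteins. Of the 25 such genes that could be matched of 28, 16 were expressed (64.0%, against 52.2% of all genes), with a median of 6.43 CPM over the 25. The 4 highest in CPM were Ctgf (Ccn2) at 1989 ± 168 CPM per kb, Cyr61 (Ccn1) at 1112 ± 132, Unc5b, a netrin receptor, at 170 ± 16.9 and Wisp1 (Ccn4) at 99.6 ± 8.54 (SD, n = 3). Thbs1 was above every one of them, at 2967 ± 134. These 4 genes had highest over lowest ratios from 1.18 to 1.22, near the median of 1.24 over the 12218 genes, while that of Thbs1 was 1.09. Such evenness was not particular to Thbs1, as Calr also had a ratio of 1.09. By coefficient of variation, 14.2% of the 12218 genes varied less than Thbs1. Cfp, the properdin gene, known from leukocytes, was highest in clone 2 with 359, 1086 and 282 counts. Rspo2, an activator of Wnt signalling, was lowest there with 1604, 285 and 1683 counts, and both were named after their values were seen. Rspo4, Thsd7b and Wisp3 (Ccn6) did not exceed 3 counts in any clone.

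**Figure D4:**
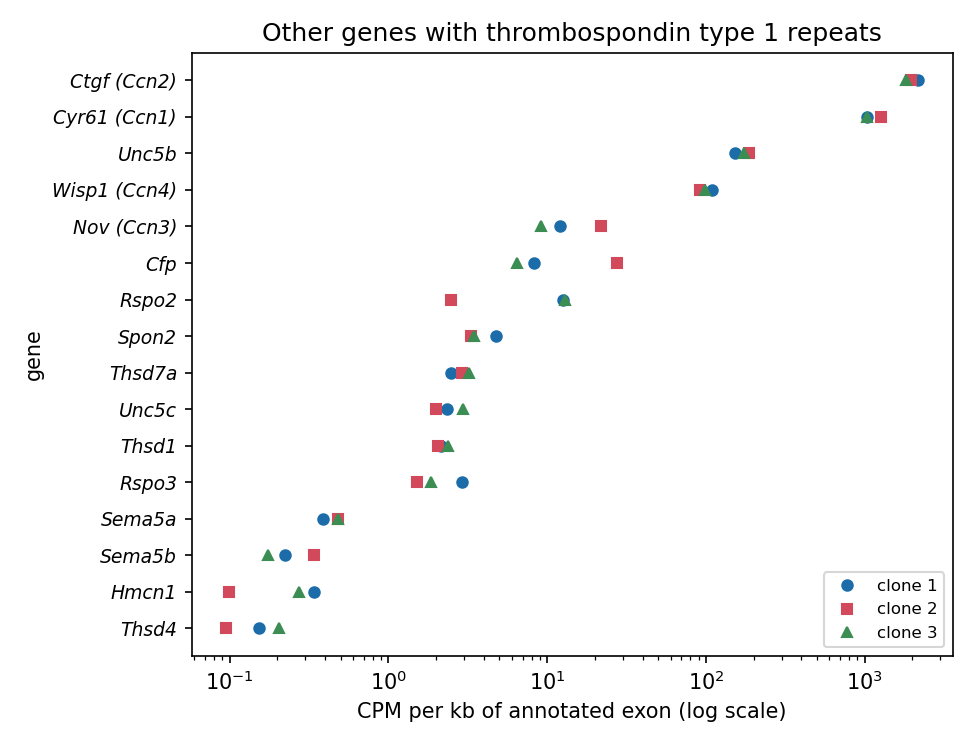
CPM per kb of annotated exon (log axis) of the 16 other genes with type 1 repeats that passed 1 CPM in all clones, with 1 point per clone and genes ordered by mean. Ctgf and Cyr61 are highest, and Cfp and Rspo2 show the widest spread with clone 2 apart from the others.

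The genes nearest to each member in log2(CPM + 1) over the 3 clones, out of 21781 other genes, were listed by Euclidean distance. With 3 clones, such likeness is mostly one of level. Nearest to Thbs1 were Col1a2 (distance 0.63), Col1a1 (1.09) and Fn1 (1.13). To Thbs2 the nearest were Myl9 (0.063), Actg2 (0.207) and Picalm (0.215), and Myl9 had 841, 627 and 716 CPM in clones 1, 2 and 3. For Thbs3 they were Ttyh2, Senp6 and Foxp4, all within 0.060, for Comp Palmd, Zfp783 and Efna3, and for Cd47 Clcc1, Ezr and Gjc1.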

How the data were processed

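PolyA RNA of 3 clones of WT MEFs was sequenced. Per the paper's methods, the authors aligned 86-nt single-end reads with TopHat (2.0.0), which used Bowtie (version 0.12.7) and Samtools (version 0.1.16) and allowed 2 mismatches and 5 multi-hits, and assigned them to mm10 genes with HTSeq, while the submitters' processing notes name mm9. Raw counts, 1 row per gene symbol, were deposited. The annotation and strand setting are not given in the sources used here.

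CPM were computed with TMM library sizes (edgeR 4.0.16, R 4.3.3). Ratios between clones have exact conditional 95% intervals and shares have Clopper-Pearson intervals, both for counting error only. A ratio of 1.5 or more among genes that reached 10 counts in all clones was counted as a difference, with no test and no p-value, since 1 condition was sequenced. Exon lengths, transcripts and coding sequences were from GENCODE M21 (GRCm38), which matched 99.7% of genes, and promoter sequences were from RefSeq. Thbs1 and Comp have no promoter shown. Proteins were aligned globally (Biopython 1.88, BLOSUM62). The ratio procedure was tested on simulated data.

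Members and lists were chosen with earlier results of these data known. Named are all members, the 4 highest expressed genes of each list by CPM, genes whose absence bears on a list, and the 3 nearest genes of each expressed member by distance; other genes were named after their values were seen. Alternatives were DESeq2 1.42.0 size factors, total counts, other thresholds, lengths and pseudocounts, and leaving out each clone.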

Additional observations from a re-analysis of the deposited data

How the results depend on the processing

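The 162 alternative values were levels, shares, ratios of highest to lowest clone and counts of genes, which have no direction that could be reversed. The order of genes by level was not among them. Among levels and shares, 10 moved by more than the SD between clones, all through the length that counts were divided by. Counts of genes stayed within 1.5 times. With 10 counts in place of 1 CPM as the threshold, the expressed genes were 9 in place of 7 for the Cd47 partners, 12 in place of 11 for the matrix partners and 18 in place of 16 for the type 1 repeat genes. Without clone 1 they were 8 for the Cd47 partners and 17 for the type 1 repeat genes, and without clone 3 they were 12 for the matrix partners. When TMM was replaced by total counts or DESeq2 size factors, none of the 12 member levels moved by more than its SD. When the transcript of longest coding sequence gave the length, Thbs2 was at 123 CPM per kb, Thbs3 at 22.7 and Cd47 at 35.0, which puts Cd47 above Thbs3. The share of Thbs1 in the family was then 95.5% and that of Thbs3 0.703%. With no length, the share of Thbs3 was 0.385%. Per kb of the longest annotated transcript, a length chosen after seeing the data, Thbs2 was at 123 CPM, Thbs3 at 17.9 and Cd47 at 6.88, and the share of Thbs3 was 0.557%. Without clone 1, Comp averaged 1.49 CPM in place of 2.45 CPM, and without clone 2 it averaged 3.15 CPM. Without clone 3, Thbs4 averaged 0.124 CPM in place of 0.189 CPM. Comp was the member past 1.5-fold without any 1 of the clones, at 1.79 to 4.12-fold. Depth limits Thbs4 and Comp. No paired analysis was possible because there is 1 group.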

Other observations

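Mtx1, which encodes a protein of the outer mitochondrial membrane, lies next to Thbs3 on chromosome 3 on the opposite strand. Exons that overlap Thbs3 are annotated for it in GENCODE, while in the RefSeq table it runs from 89209081 to 89213907, and its end nearest to Thbs3 is 1273 bp from the Thbs3 start at 89215180. It had 688, 645 and 702 counts in clones 1, 2 and 3, or 28.0 ± 0.50 CPM (SD, n = 3). Its highest over lowest ratio was 1.03, while that of Thbs3 was 1.27. The counting interval of the ratio of clone 1 to clone 2 was 0.868 to 1.08 for Mtx1 and 1.18 to 1.36 for Thbs3. Mtx1 was looked at after the overlap of its annotated exons with Thbs3 had been seen.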
